A study of Mus musculus with 24 samples.

Results

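The nucleus-encoded subunits of respiratory complexes II to V were taken as the genes whose symbols begin with Uqcr, Cox4 to Cox8 or Atp5, together with Sdha, Sdhb, Sdhc and Sdhd. These symbols matched 47 of the 24421 genes in the table, 4 for complex II, 8 for complex III, 18 for complex IV and 17 for complex V. A filter on low counts kept 43 of them among 12742 tested genes. The 4 left out were isoforms of complex IV. Cox7b2, Cox8b and Cox8c had 0 counts in all 12 specimens and Cox4i2 had 1 to 10. Cyc1, the cytochrome c1 of complex III, lies outside these symbols and is counted with other parts of the chain. The table holds 0 mitochondrially encoded genes, so the subunits of complexes III, IV and V encoded there were not analysed here.

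Complex II (succinate dehydrogenase) passes electrons from succinate to ubiquinone, complex III passes them to cytochrome c, and complex IV (cytochrome c oxidase) reduces oxygen. Complexes III and IV pump protons across the inner mitochondrial membrane, and complex V, the ATP synthase, lets them back through a rotating ring to make ATP. Complex II also works in the citric acid cycle, and all its subunits are nuclear genes. Most of the nucleus-encoded subunits of complexes III to V are small proteins from short messenger RNAs, and mature neutrophils, the most abundant cells of the marrow, draw most of their energy from glycolysis instead.

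The specimens were bone marrow mononuclear cells of Shp2 E76K mice, which carry an activating mutation of the phosphatase Shp2 and serve as a model of juvenile myelomonocytic leukemia. Mice had received vehicle, ACP196 (acalabrutinib, an inhibitor of the kinase BTK), ACP319 (an inhibitor of the p110δ form of PI3K) or both for 3 weeks. Each of these 4 groups had 3 specimens: vehicle 1 to 3, BTK inhibitor 4 to 6, PI3K inhibitor 7 to 9, combination 10 to 12. Values of a group are printed in that order. All groups carry the mutation, there is no group without it, and the labels give neither age, sex nor dose, nor what drives the mutant allele. Whether every specimen came from its own mouse is not stated, and the p-values rest on the spread among the specimens of a group, which may be partly technical.

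Each specimen had between 16038577 and 22154833 counts except BTK inhibitor specimen 5, which had 8993950, of which 15.4% were the ribosomal RNA precursor Rn45s (0.203% to 0.773% in the other 11). BTK inhibitor specimen 6 carries another date in its title (day 30) than the other 11 (day 24), and what was done on that date is not stated. Levels also moved with the length of the gene. The slope of a specimen's centred log2 CPM (counts scaled to library size, each gene centred on its mean over the 12 specimens) on log2 length averaged 0.22 ± 0.16 (SD, n = 3) in vehicle, −0.15 ± 0.29 with the BTK inhibitor, −0.28 ± 0.16 with the PI3K inhibitor and 0.21 ± 0.10 in the combination. The members are short, with a median length of 724 bases against 2835 bases for all tested genes, so the results are set beside genes of like length. Several short members have processed pseudogenes of nearly the same sequence, the counting of shared reads is not stated, and the libraries do not mark strand, so reads shared with a copy or with an antisense gene cannot be told apart.

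Promoters of these genes are known to hold sites for NRF1, for the ETS factor GABP, for YY1 and for the estrogen-related receptors (ERR), which tune nuclear genes of the mitochondrion together. RefSeq's table of promoters (GRCm38.p6, 250 bases before to 50 after each start) had an entry for 37 of the 47 members, 35 of them tested, 3 of the 37 matched through a synonym. On either strand, the NRF1 motif GCGCATGCG stood in 6 of the 35 (17.1%; Atp5g2, Atp5k, Atp5l, Cox6a1, Uqcr11 and Uqcrc1) and in 1.75% of all 32851 promoters. Counted by gene, as the members were, it stood in 1.93% of the 26988 other genes. The ETS motif CCGGAAGT stood in 4 (11.4%; Atp5h, Cox8a, Uqcr11 and Uqcrh) against 3.89% of all promoters, the YY1 motif AAGATGGC in 4 (11.4%) against 2.75%, and the ERR motif CAAGGTCA in 3 (8.57%; Atp5g3, Atp5l and Sdhd) against 1.56%. By gene, the shares of other genes with these 3 motifs were 4.3%, 3.18% and 1.75%. A match describes the letters in this window and is no measured binding. The 3 sequences below show a clear case of the NRF1, ETS and ERR motifs in members whose values are given later. Each is the 250 bases before the start on the gene's own strand, 5′ to 3′, with the motif in capitals; the first is chr5:108434400-108434649 (minus strand), the second chr10:80406822-80407071 (minus) and the third chr2:73911327-73911576 (minus). The palindrome in Atp5k holds the NRF1 motif on both strands, overlapping, and the ERR motif of Atp5g3 is on the opposite strand.
Atp5k: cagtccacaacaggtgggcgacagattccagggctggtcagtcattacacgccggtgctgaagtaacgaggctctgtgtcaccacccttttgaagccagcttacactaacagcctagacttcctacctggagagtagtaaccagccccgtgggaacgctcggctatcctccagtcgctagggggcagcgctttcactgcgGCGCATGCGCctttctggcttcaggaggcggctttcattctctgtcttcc
Uqcr11: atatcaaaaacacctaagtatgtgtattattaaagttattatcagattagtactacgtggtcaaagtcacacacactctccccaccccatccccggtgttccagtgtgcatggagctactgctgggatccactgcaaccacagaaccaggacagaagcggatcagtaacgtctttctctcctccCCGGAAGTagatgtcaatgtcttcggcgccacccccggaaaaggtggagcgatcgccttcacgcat
Atp5g3: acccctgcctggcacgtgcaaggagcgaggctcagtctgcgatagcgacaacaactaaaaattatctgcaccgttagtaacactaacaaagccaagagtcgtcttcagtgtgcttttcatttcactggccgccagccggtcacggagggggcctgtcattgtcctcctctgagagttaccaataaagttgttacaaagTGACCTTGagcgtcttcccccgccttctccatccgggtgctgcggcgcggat

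In vehicle the 43 tested members spanned a wide range of levels per length. The highest was Cox4i1, the largest nuclear subunit of cytochrome c oxidase, at 474 ± 122 CPM per kilobase (SD, n = 3), followed by Atp5b, the catalytic β subunit of ATP synthase, at 454 ± 46.2. The median member of complex II lay at 82.7 CPM per kilobase, of complex III at 156, of complex IV at 181 and of complex V at 186. Levels fell in a continuous series: of 42 neighbouring pairs in the order of the vehicle means, the 3 vehicle specimens overlapped in 37. The 5 pairs that did not overlap were the last 5, from Sdha at 55.9 through Cox6b2, Cox6a2, Atp5sl and Atp5s to Cox7a1 at 0.745 CPM per kilobase. Those last 5 are isoforms of heart, muscle or testis, and 2 genes whose products are not subunits of the mature enzyme: Atp5sl and its relative Atp5s.

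**Figure D1:**
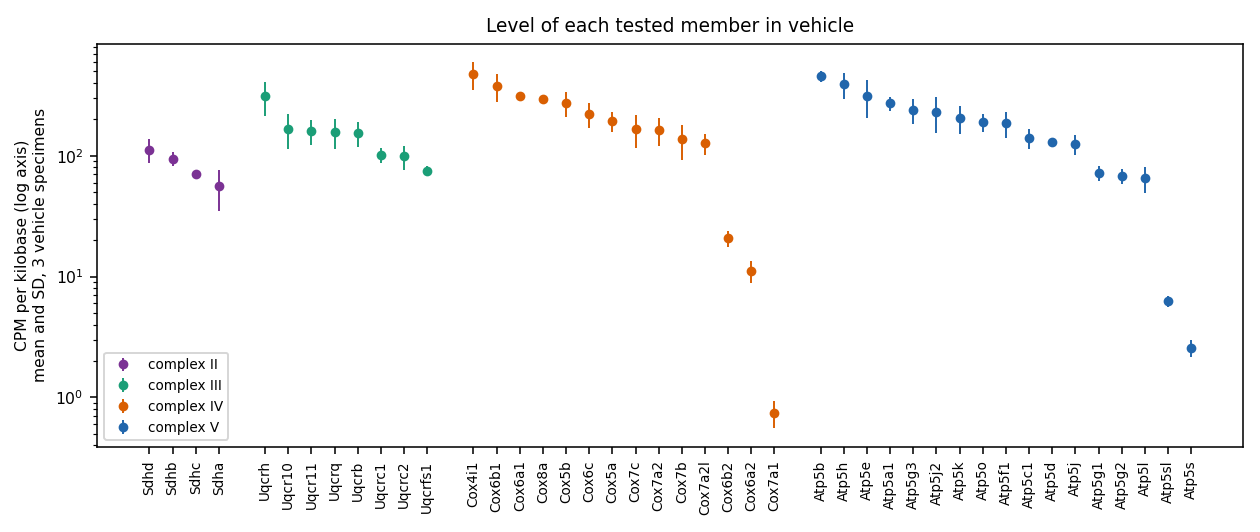
Level of each tested member in vehicle, in CPM per kilobase on a log axis, as the mean (point) and SD (bar) of 3 specimens, ordered by complex and level. Cox4i1 and Atp5b are highest at 474 and 454, and the isoforms Cox6b2, Cox6a2 and Cox7a1 lie far below the rest of complex IV.

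For the subunits that exist as tissue isoforms, the RNA came almost wholly from the ubiquitous gene in all 4 groups. Protein was not measured. Cox6a1 made up 96.6% ± 0.85 (SD, n = 3) of the 2 COX6A genes per length in vehicle and 97.0% ± 1.2, 97.4% ± 0.34 and 96.5% ± 0.60 with the BTK inhibitor, the PI3K inhibitor and the combination. Cox6b1 made up 94.5% ± 2.0, 94.5% ± 0.38, 92.8% ± 0.97 and 91.9% ± 1.5 of the COX6B genes in the same order, the rest being Cox6b2, the form best known from testis. The muscle isoform Cox7a1 never passed 0.432% of the 3 COX7A genes and rested on 3 to 14 counts in a specimen, where Cox6a2 had 95 to 265 and Cox6b2 236 to 1102.
Subunit c, which forms the rotating ring of ATP synthase, is encoded by Atp5g1, Atp5g2 and Atp5g3, which give the same mature protein. Of the RNA of these 3 genes per length, Atp5g3 made up 62.7% ± 2.4 in vehicle and 72.0% ± 8.5 with the BTK inhibitor. It made up 71.1% ± 4.8 with the PI3K inhibitor and 65.9% ± 1.8 in the combination. The vehicle specimens (63.4%, 60.1% and 64.6%) lay below all PI3K inhibitor specimens (66.7%, 76.2% and 70.4%). The BTK inhibitor specimens (70.6%, 81.1% and 64.3%) overlapped vehicle. These shares were not tested.

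Summed over the 43 members, the 3 vehicle specimens gave 6600.45, 5685 and 7320 CPM. The BTK inhibitor specimens gave 12738, 24405 and 7462 CPM, the PI3K inhibitor specimens 9798, 15160.2 and 17598, and the combination specimens 8364, 6523 and 6689. All 3 PI3K inhibitor specimens were above all vehicle and combination specimens, the BTK inhibitor specimens ran from the vehicle level to the highest of all, and the combination overlapped vehicle.
In each of complexes II to V the mean of either single inhibitor was above those of vehicle and the combination. Complex II summed to 489 ± 23.7 CPM (SD, n = 3) in vehicle, 732 ± 178 with the BTK inhibitor, 824 ± 146 with the PI3K inhibitor and 521 ± 55.1 in the combination. Complex III gave 924 ± 160.0, 2489.6 ± 1755, 2260.2 ± 752 and 1039 ± 158 CPM in that order. Complex IV gave 1784 ± 376, 5316 ± 3892, 4761 ± 1611 and 1942 ± 328, and complex V 3339 ± 304, 6331 ± 2885, 6340.3 ± 1532 and 3689.8 ± 493.

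**Figure D2:**
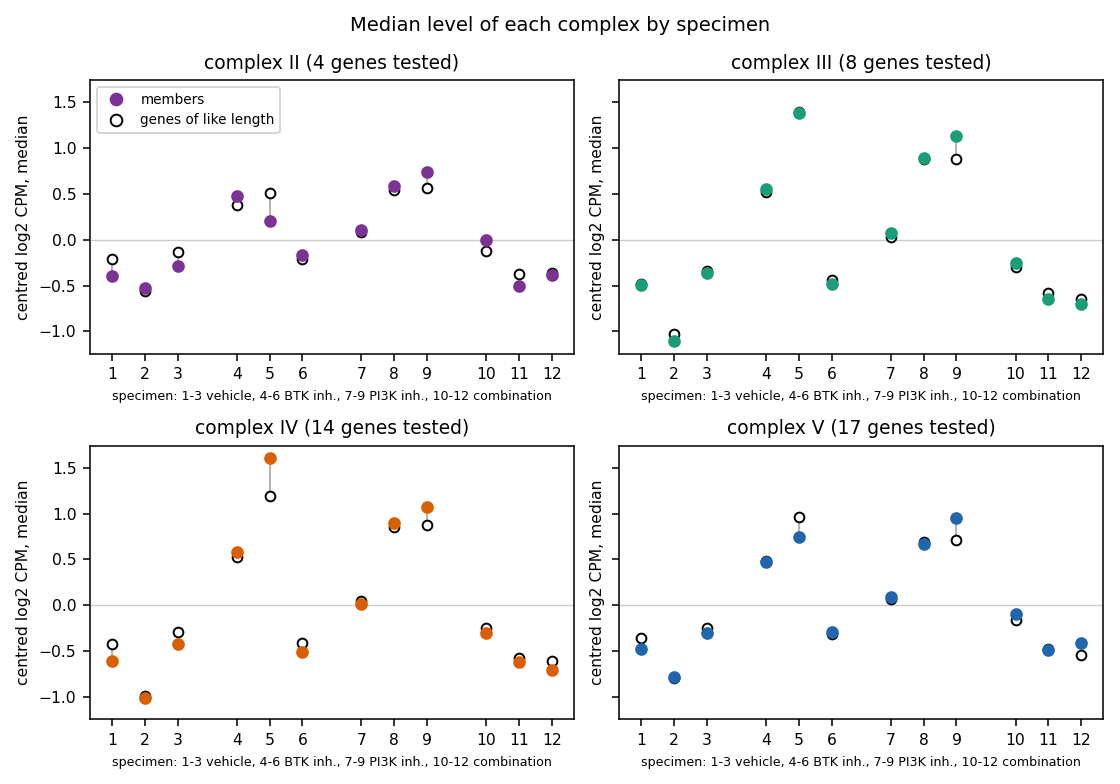
Median centred log2 CPM of the tested members of each complex (filled) and of genes of like length (open: for each member the median of the 200 other tested genes nearest in length, then the median over members), by specimen. The open circles follow the filled ones through all 12 specimens, from about −0.91 for the median over all members in vehicle specimen 2 to 1.19 in BTK inhibitor specimen 5.

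Genes of like length moved in the same way in each specimen. The median over members was −0.49, −0.91 and −0.36 in the vehicle specimens where like-length genes gave −0.38, −0.94 and −0.27. It was 0.08, 0.80 and 1.00 with the PI3K inhibitor where they gave 0.06, 0.80 and 0.84, and 0.52, 1.19 and −0.35 with the BTK inhibitor where they gave 0.50, 1.07 and −0.37. The combination gave −0.18, −0.54 and −0.56 beside −0.19, −0.51 and −0.55. What was left, the median distance of a member from its like-length genes, was −0.15 ± 0.04 (SD, n = 3) in vehicle, 0.11 ± 0.17 with the BTK inhibitor, 0.12 ± 0.11 with the PI3K inhibitor and −0.04 ± 0.04 in the combination. Over all members, the vehicle specimens (−0.20, −0.13 and −0.12) lay below all other specimens on this scale, of which the lowest was combination specimen 11 at −0.08. This did not hold in any complex taken singly. In complex II vehicle specimen 2 was at 0.17. BTK inhibitor specimen 5 (−0.111) was below vehicle specimen 1 (−0.108) in complex III. In complex IV combination specimens 11 and 12 (−0.12 and −0.13) were below vehicle specimens 2 and 3 (−0.10 and −0.10). In complex V BTK inhibitor specimen 6 (−0.10) was below vehicle specimen 3 (−0.05).

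In complex II, the flavoprotein Sdha and the membrane anchors Sdhc and Sdhd (1179 and 1285 bases) differed in behaviour and also in length. Sdha, which binds succinate and is the longest member at 2859 bases, had 122, 229 and 129 CPM in vehicle, 166, 133 and 167 with the BTK inhibitor, 172, 182 and 144 with the PI3K inhibitor and 161, 169 and 181 with the combination. All groups overlapped, and the log2 difference of PI3K inhibitor minus vehicle was 0.05 ± 0.27 (SE; edgeR adjusted p = 0.897).
Sdhc, an anchor that holds heme and the ubiquinone site, had 86.3, 79.4 and 85.1 CPM in vehicle, 154, 153 and 101 with the BTK inhibitor, 119, 193 and 177 with the PI3K inhibitor and 113, 77.4 and 86.2 with the combination. It rose with the PI3K inhibitor by 0.96 ± 0.27 (log2, SE; edgeR adjusted p = 0.0435), and no PI3K or BTK inhibitor specimen reached down to the vehicle range.
Sdhd, the other anchor, had 150.2, 109 and 173 CPM in vehicle, 321, 439 and 147 with the BTK inhibitor, 224, 329 and 386 with the PI3K inhibitor and 182, 135 and 146 with the combination. Sdhb, the iron-sulfur subunit, had 103, 86.7 and 114 CPM in vehicle, 178, 124 and 112 with the BTK inhibitor, 142, 179 and 224 with the PI3K inhibitor and 125, 90.7 and 97.1 with the combination. Both had PI3K inhibitor specimens above all vehicle specimens, with log2 differences of 1.12 ± 0.37 for Sdhd (adjusted p = 0.0587) and 0.84 ± 0.27 for Sdhb (adjusted p = 0.0559) that missed the threshold of 0.05. For this comparison the median of complex II was 0.90, beside 0.72 in like-length genes. With a trend on length removed before the test, the differences in complex II ran from 0.04 to 0.46, and no gene was called.

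In complex III, the Rieske iron-sulfur protein Uqcrfs1, which hands electrons toward cytochrome c1, gave the smallest p of all members for the PI3K inhibitor. The gene lies on mm10 chromosome 13 from 30540312 to 30545316 on the minus strand. It had 98.3, 89.4 and 109 CPM in vehicle, 186, 127 and 119 with the BTK inhibitor, 156, 233 and 259.8 with the PI3K inhibitor and 133, 104 and 107 with the combination. It rose by 1.13 ± 0.27 (log2, SE; edgeR adjusted p = 0.0403), a 2.19-fold difference in which no specimen overlapped, against a like-length median of 0.66.
Uqcrb, a small subunit near the ubiquinone site, had 80.8, 58.2 and 93.2 CPM in vehicle, 172, 261 and 82.3 with the BTK inhibitor, 125, 219.7 and 237 with the PI3K inhibitor and 97.4, 67.3 and 70.4 with the combination. It rose by 1.32 ± 0.39 with the PI3K inhibitor (adjusted p = 0.0471), almost exactly the like-length median of 1.29.
Uqcrh, the acidic hinge protein beside cytochrome c1, had 179, 114 and 219 CPM in vehicle, 521, 2125 and 212 with the BTK inhibitor, 319.9, 705 and 813 with the PI3K inhibitor and 251, 206 and 179 with the combination. Uqcr11, a small peripheral subunit, had 70.8, 52.8 and 84.9 CPM in vehicle, 180.0, 635 and 80.2 with the BTK inhibitor, 125, 270.01 and 292 with the PI3K inhibitor and 103, 69.2 and 73.5 with the combination. In both, BTK inhibitor specimen 5 was the highest of all 12 and specimen 6 stayed within the vehicle range. Their PI3K inhibitor differences, 1.85 ± 0.64 and 1.72 ± 0.58, had adjusted p of 0.0688 and 0.0648.
The core protein Uqcrc1, a long member, had 159, 194 and 152 CPM in vehicle, 244, 133 and 181 with the BTK inhibitor, 228, 279 and 277 with the PI3K inhibitor and 206, 156 and 177 with the combination. Its difference of 0.64 ± 0.26 for the PI3K inhibitor (adjusted p = 0.101) was the smallest in complex III, where like-length genes gave 0.44.

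In complex IV all 14 tested members were higher with the PI3K inhibitor than in vehicle, from 0.86 for Cox6a2 to 1.96 for Cox6b2 (log2), and 5 passed the test. Cox4i1, the regulatory subunit that binds ATP, had 399, 257 and 431 CPM in vehicle, 999, 2633 and 419 with the BTK inhibitor, 629, 1265 and 1353 with the PI3K inhibitor and 508, 384 and 345 with the combination. Its difference of 1.58 ± 0.53 (adjusted p = 0.0640) missed the threshold although the PI3K inhibitor and vehicle specimens did not overlap.
Cox5b, which binds zinc on the matrix side, had 171, 113 and 182 CPM in vehicle, 325, 429 and 183 with the BTK inhibitor, 264, 405 and 503 with the PI3K inhibitor and 213, 169 and 151 with the combination. It rose with the PI3K inhibitor by 1.33 ± 0.35 (adjusted p = 0.0407), beside 1.21 in like-length genes.
Cox6c, a small membrane subunit, had 122, 82.0 and 133 CPM in vehicle, 324, 720 and 139 with the BTK inhibitor, 196, 474 and 407 with the PI3K inhibitor and 159, 122 and 109 with the combination, and rose with the PI3K inhibitor by 1.68 ± 0.50 (adjusted p = 0.0479). Cox7b, another small membrane subunit, had 152, 87.7 and 171 CPM in vehicle, 301, 329 and 172 with the BTK inhibitor, 229, 360.3 and 509.9 with the PI3K inhibitor and 188, 150.0 and 145 with the combination, and rose by 1.42 ± 0.36 (adjusted p = 0.0407). In both, every PI3K inhibitor specimen exceeded every vehicle and combination specimen.
The small subunit Cox7c had 76.5, 51.7 and 97.7 CPM in vehicle, 215, 711 and 84.6 with the BTK inhibitor, 133, 284 and 309 with the PI3K inhibitor and 90.8, 66.3 and 64.8 with the combination. Cox7a2l, whose product ties complex III to complex IV in supercomplexes and is no ordinary subunit, had 163, 112 and 163 CPM in vehicle, 327, 593 and 195 with the BTK inhibitor, 234, 384 and 365 with the PI3K inhibitor and 183, 144 and 129 with the combination. In Cox7a2l all specimens of both single inhibitors were above all of vehicle and the combination, which in Cox7c held for the PI3K inhibitor alone. Their PI3K inhibitor differences were 1.68 ± 0.59 (adjusted p = 0.0703) and 1.16 ± 0.37 (adjusted p = 0.0556).

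In complex V the small subunits and the large catalytic ones parted. Atp5b had 756, 922 and 882 CPM in vehicle, 1061, 300.5 and 1009 with the BTK inhibitor, 1163, 979 and 1457 with the PI3K inhibitor and 1091, 827 and 961 with the combination. Atp5c1, the γ subunit that turns inside the catalytic head, had 274, 196 and 285 CPM in vehicle, 354, 134 and 284 with the BTK inhibitor, 346, 362 and 544 with the PI3K inhibitor and 306, 234 and 250.1 with the combination. For both, BTK inhibitor specimen 5 was the lowest of all 12, and the PI3K inhibitor specimens lay above all vehicle specimens without passing the test (0.49 ± 0.39, adjusted p = 0.377, and 0.73 ± 0.34, adjusted p = 0.142).
Atp5e, the ε subunit of the same head, had 145, 79.6 and 167 CPM in vehicle, 396, 2718 and 145 with the BTK inhibitor, 212, 539.7 and 519.5 with the PI3K inhibitor and 169, 134 and 125 with the combination. In RNA, the ratio of Atp5e to Atp5b per length was 0.39 to 0.87 in vehicle, 0.83 to 2.50 with the PI3K inhibitor and 0.59 to 0.74 with the combination. With the BTK inhibitor it was 1.69, 41.1 and 0.65. In specimen 5 that ratio rested on 13461 counts of Atp5e (414 bases) and 1488 of Atp5b (1879 bases). The same ratio for Atp5c1 (1800 bases) ran from 0.22 in vehicle specimen 2 to 0.47 in specimen 5. For Atp5d (931 bases) it was 1.51 in specimen 5 and 0.26 to 0.51 in the others.
Atp5k, the membrane subunit e, had 59.7, 43.98 and 76.1 CPM in vehicle, 162, 599 and 68.0 with the BTK inhibitor, 95.2, 213 and 225 with the PI3K inhibitor and 69.0, 52.6 and 57.3 with the combination. Atp5h, the stalk subunit d, had 254, 162 and 255 CPM in vehicle, 611, 1742 and 255 with the BTK inhibitor, 386, 819 and 811 with the PI3K inhibitor and 322, 248 and 210.0 with the combination. Neither passed the test for the PI3K inhibitor (1.57 ± 0.60, adjusted p = 0.0861, and 1.59 ± 0.55, adjusted p = 0.0670), and in both specimen 5 was again the highest.
Atp5o, the oligomycin sensitivity protein that joins the stalk to the head, had 147, 122 and 169.7 CPM in vehicle, 292, 277 and 179 with the BTK inhibitor, 238, 337 and 434 with the PI3K inhibitor and 210.0, 146 and 155 with the combination. It rose with the PI3K inhibitor by 1.20 ± 0.30 (adjusted p = 0.0407), and its BTK inhibitor specimens did not overlap vehicle either.

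**Figure D3:**
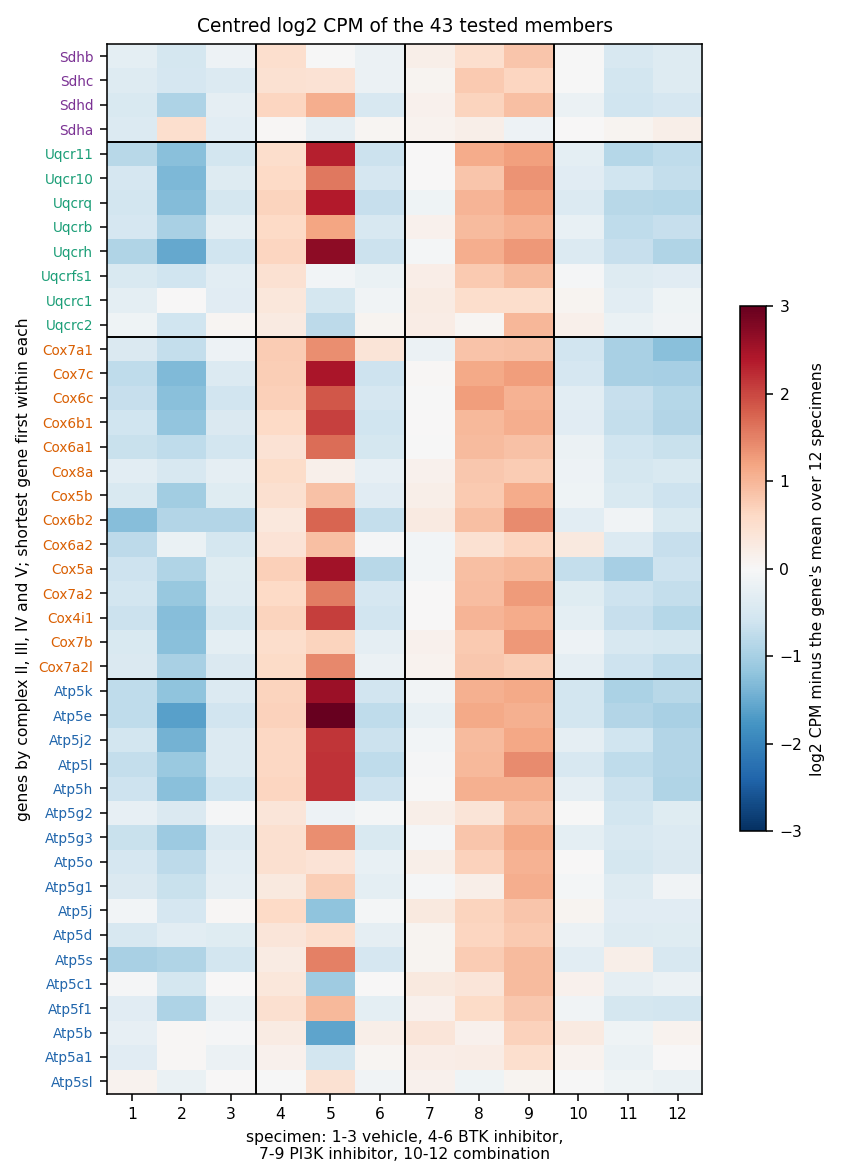
Centred log2 CPM of the 43 tested members (rows, by complex and then from the shortest gene to the longest) in the 12 specimens (columns), red above and blue below the gene's own mean; the darkest cell, Atp5e in specimen 5, passes the end of the scale. Specimen 5 is red in the short rows at the top of the blocks of complexes III to V and blue in Atp5b, Atp5c1 and Atp5j; specimens 8 and 9 are red in nearly all rows.

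Within a specimen, short and long members therefore differed. In BTK inhibitor specimen 5 the 17 members under 600 bases had a median centred log2 CPM of 2.15 and the 15 members of 1000 bases or more −0.02, a difference of 2.17. In the other 11 specimens that difference ran from −0.71 in vehicle specimen 2 to 0.45 in PI3K inhibitor specimen 8. Other genes under 600 bases gave 1.53 in specimen 5, and other genes of 1000 bases or more −0.18.

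The comparison of the PI3K inhibitor with vehicle asks what the p110δ inhibitor alone did in these cells. All 43 tested members were higher, by 0.05 to 1.96 (log2) with a median of 1.28, while the median of all tested genes was −0.01. Of the 43, 11 passed the test, all higher: Sdhc, Uqcrfs1, Uqcrb, Cox5b, Cox6b2, Cox6c, Cox7b, Cox8a, Atp5d, Atp5g3 and Atp5o. That is 25.6% of the members against 4.84% of all tested genes called higher, and 15.2% on average among the like-length genes of each member. At an unadjusted p under 0.05, 36 members were higher, against 18.1% of all tested genes and 53.1% of like-length genes. The specimens did not overlap in 40 of the 43, against 24.9% of all tested genes. The share without overlap was not computed for like-length genes, here or in the other comparisons.
The adjusted p of the 11 ran from 0.0403 to 0.0480, so small changes moved the count. It was 0 of 43 without vehicle specimen 1, 2 or 3, PI3K inhibitor specimen 8 or 9, or combination specimen 10, 11 or 12, and no other gene was called then. It was 37 without BTK inhibitor specimen 5 (17.1% of all genes called higher), 33 without specimen 6 (13.3%) and 23 without PI3K inhibitor specimen 7 (8.08%). With presence of Y-linked transcripts as a covariate it was 0, and no other gene was called then either. Y-linked transcripts passed 10 CPM in specimens 1, 2, 4, 8 and 11. Other fits called more of all genes as well: DESeq2 called 32 members and 12.5% of all genes higher, limma voom 37 and 19%, and a fit of only the groups compared 35 and 16.2%.

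**Figure D4:**
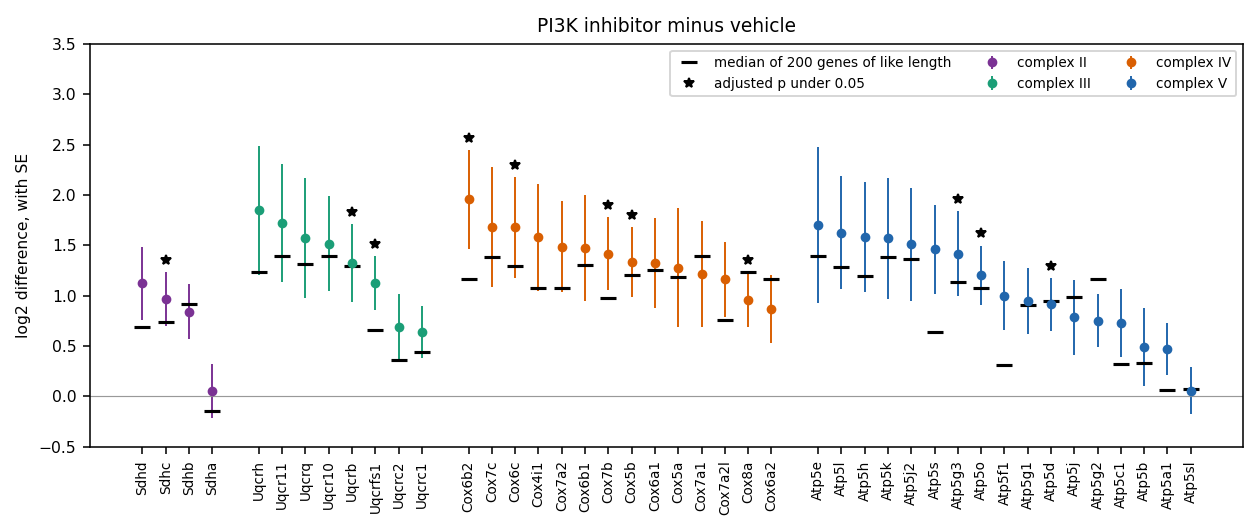
Log2 difference of PI3K inhibitor minus vehicle for each tested member, with its SE (edgeR, 3 specimens in each group), beside the median of 200 other genes of like length (black dash); stars mark an adjusted p under 0.05. The dashes follow the points: 35 of the 43 members lie above their dash, by a median over all members of 0.22.

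Most of that difference was shared with genes of like length. Their median difference was 1.14 beside 1.28 for the members, and the median distance between a member and its like-length genes was 0.22, with 35 of 43 members above. By complex the median distance was 0.21 in complex II, 0.29 in complex III, 0.23 in complex IV and 0.18 in complex V. With neighbours also matched on level, these distances were 0.015, 0.36, 0.42 and 0.31. Such neighbours differed from a member in length by up to 1791 bases, against 237 without that match. The members furthest above like-length genes were Atp5s (0.82), Cox6b2 (0.80), Atp5f1, the stalk subunit b (0.69), and Uqcrh (0.61), and those furthest below were Atp5g2 (−0.41), Cox6a2 (−0.30) and Cox8a (−0.28). All 8 members of complex III lay above.
When a smooth trend on length was removed within each library before the test, no member and no other gene was called (0% of all genes), and the median of the members fell from 1.28 to 0.38. Then Cox8a and Atp5d, called before, had differences of −0.16 and −0.02. With the trend removed and BTK inhibitor specimen 5 left out, 9 members were called higher, against 9.56% of all genes: Uqcr11, Uqcrfs1, Uqcrh, Cox4i1, Cox6b2, Cox6c, Cox7b, Atp5f1 and Atp5s. In all 3 fits, complex II had the smallest median difference, 0.90, 0.17 and 0.17.

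**Figure D5:**
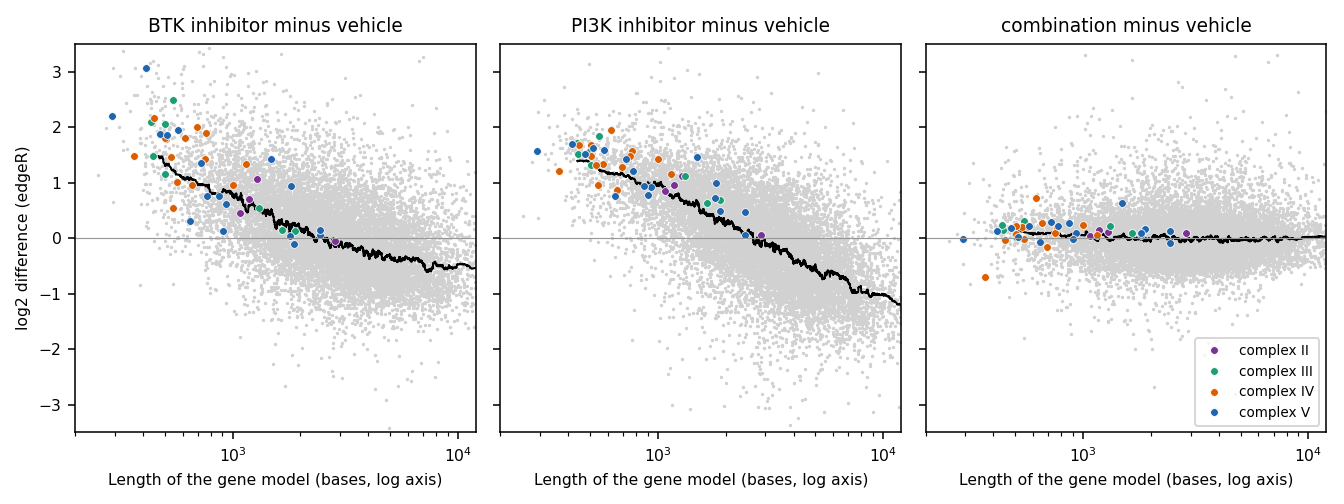
Log2 difference from vehicle (edgeR) against gene length on a log axis, for the BTK inhibitor, the PI3K inhibitor and the combination; members are coloured by complex, other tested genes are grey, and the line is the running median of 201 other genes; genes beyond the vertical axis are not drawn. Members follow the line in all 3 panels, with medians of 1.15, 1.28 and 0.13.

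With the BTK inhibitor alone, the difference from vehicle had a median of 1.15 over the members, with 41 of 43 higher, and like-length genes gave 0.96. Complex IV had the highest median, 1.47, and complex II the lowest, 0.57. By edgeR's adjusted p no member passed, nor did any gene (0%); 31 members had an unadjusted p under 0.05 and were higher (15.8% of all genes; 48.9% of like-length genes), and 22 members passed with DESeq2 (7.17%) and 32 with limma voom (11%). The specimens of the groups did not overlap in 14 members (8.92% of all genes). Without BTK inhibitor specimen 6, 31 members were called higher against 16.1% of all genes, and without specimen 5 none was. Members stood 0.17 above like-length genes, 0.47 in complex IV, 0.12 in complex II and 0.04 in complex III. By specimen, the median distance in complex IV was 0.08, 0.48 and −0.06 in BTK inhibitor specimens 4, 5 and 6, so its height rested on specimen 5. With the trend on length removed and specimen 5 left out, the median difference was 0.22 in complex IV and 0.22 over all members. The sign in complex III rested on the number of neighbours (−0.04 with 100), and complex II turned to −0.07 with neighbours also matched on level. B cell markers moved with this comparison: 8 of 8 were higher, with a median of 1.29 and none called, and their part in the result was not tested.

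With both inhibitors, the members lay closer to vehicle than with either inhibitor alone. Against vehicle the median was 0.13, with 35 of 43 higher and like-length genes at 0.09, no member passed the test by edgeR, DESeq2 or voom (0%, 0.173% and 9.66% of all genes in either direction), and none was higher at an unadjusted p under 0.05 (3.41% of all genes). The largest differences were those of Atp5s, at 0.63, and Cox6b2, at 0.73, and Cox7a1, the member with the fewest counts among those tested, was lowest at −0.70. Groups did not overlap, with the combination higher, in 2 members (9.32% of all genes). With 3 specimens in each group, the absence of calls does not show equal levels. Over all members, the median distance from like-length genes was −0.01, −0.08 and −0.04 in the combination specimens, above all vehicle specimens.
Against the PI3K inhibitor alone, 42 of 43 members were lower with the combination, the exception being Sdha (0.04 ± 0.27), with a median of −1.12 beside −1.05 in like-length genes. The groups did not overlap in 37 members (24.6% of all genes). At an unadjusted p under 0.05, 32 were lower, against 14.7% of all genes and 51.6% of like-length genes. No gene passed edgeR's adjusted p over all 12 specimens (0%), whereas 16 members passed with DESeq2 (3.8%), 37 with voom (21%), 33 with only the groups compared (16.1%), 33 without BTK inhibitor specimen 5 (9.38% of all genes) and 29 without specimen 6 (6.31%).
Against the BTK inhibitor alone, the median was −0.97 beside −0.89 in like-length genes, and 38 of 43 members were lower. No gene passed by edgeR (0%). At an unadjusted p under 0.05, 24 members were lower, against 13.9% of all genes and 44.6% of like-length genes. The groups did not overlap in 2 members (6.73% of all genes). With DESeq2 14 members passed (4.04%), with voom 33 (18.7%) and without specimen 6 25 (14.7%).
The PI3K inhibitor minus the BTK inhibitor gave a median of 0.06, and 0 members passed by edgeR (0% of all genes), DESeq2 or voom. Uqcrfs1 alone had an unadjusted p under 0.05 and was higher (0.59 ± 0.27; 2.01% of all genes), and 1 member did not overlap (3.77%).

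The interaction asks whether the combination differed from the sum of the effects of the 2 inhibitors on the log2 scale. It was below 0 in 42 of 43 members, with a median of −2.26, and 35 members passed, all lower, which is 81.4% against 15.6% of all tested genes and 53.6% of like-length genes on average. All 14 tested members of complex IV passed, 3 of 4 in complex II, 6 of 8 in complex III and 12 of 17 in complex V. The 8 that did not pass were Sdha, Uqcrc1, Uqcrc2, Atp5a1, Atp5b, Atp5c1, Atp5j and Atp5sl, all but Atp5j of 1656 bases or more. Like-length genes had a median of −2.00, and the median distance of the members was −0.49, −0.78 in complex IV and −0.18 in complex II, the last of which turned to 0.18 with neighbours also matched on level.
With the trend on length removed, 0 members passed (0.00785% of all genes) and the median was −0.64. With BTK inhibitor specimen 5 also left out, 0 passed (2.33%) and it was −0.53. Without vehicle specimen 2, PI3K inhibitor specimen 8 or 9, or combination specimen 11 or 12, 0 passed. In each of those fits, at most 1 of all tested genes was called. A single test for any difference among the 4 groups called no gene (0%), with an adjusted p of 0.0975 or more for every member, and 35 members had an unadjusted p under 0.05 (30.6% of all genes). The comparisons share groups, so they are not separate evidence for each other.

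Other genes of the respiratory chain, from lists chosen with earlier results of these data known, are given for the PI3K inhibitor minus vehicle, where 4.84% of all tested genes were called higher. Of 35 tested subunits of complex I, 10 were called higher (28.6%, against 16.1% of genes as long as these) and the median was 1.33; the smallest p was that of Ndufv1, the subunit that binds NADH (1.00 ± 0.24, adjusted p = 0.0403). Of 37 assembly factors of complexes II to V, 4 were called higher (Sdhaf4, Cox20, Higd1a and Cmc1), which at 10.8% was near the 10.7% of genes of their length, and the median was 0.97. Sdhaf4, which helps load the flavin subunit of complex II, had a difference of 1.82 ± 0.49 (adjusted p = 0.0423).
Of 14 other parts of the chain, 4 were called higher (28.6%, against 11.3% of genes of their length) with a median of 0.79. They were Vdac3, a porin of the outer membrane, Slc25a3, the phosphate carrier (1.02 ± 0.27, adjusted p = 0.0408), Usmg5, a small protein of ATP synthase, and Atpif1, its inhibitor (1.88 ± 0.50, adjusted p = 0.0408). Atpif1 had 152, 139 and 228 CPM in vehicle and 365, 642 and 903 with the PI3K inhibitor.
None of 16 citric acid cycle genes was called, with a median of 0.36, where 6.06% of genes of their length were; the smallest p was that of Pdhb, a subunit of pyruvate dehydrogenase (1.16 ± 0.36, adjusted p = 0.0524), followed by Suclg1, a subunit of succinyl-CoA ligase (0.81 ± 0.29, adjusted p = 0.0732). Among 16 genes of mitochondrial transcription and biogenesis, Tfb1m (1.18 ± 0.27, adjusted p = 0.0399) and Slirp (1.43 ± 0.38, adjusted p = 0.0416) were called higher (12.5%, against 4.5% of genes of their length), with a median of 0.19. None of these 5 lists had a member called lower in this comparison. In the interaction, 33 of the 35 complex I genes, 19 of the 37 assembly factors, 7 of the 14 other parts, 2 of the 16 citric acid cycle genes and 3 of the 16 biogenesis genes were called lower, and 1 biogenesis gene higher. As shares these are 94.3%, 51.4%, 50%, 12.5% and 18.8% called lower, beside 53.4%, 36.4%, 39.6%, 18.5% and 14.4% of genes of their length and 15.6% of all tested genes.

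The marrow label could be checked against marker lists. Neutrophil genes (9 in the table) summed to 57170 to 206737 CPM over the 12 specimens, and muscle genes (5) to at most 4.85. Erythroid genes, whose cells are rich in mitochondria before they mature, summed to 560.1 to 2249 CPM in vehicle, 1215 to 2401 with the BTK inhibitor, 1793 to 3578 with the PI3K inhibitor and 2831 to 3146 with the combination. Of 13 erythroid genes in the table, 4 (Hba-a1, Hba-a2, Hbb-bs and Hbb-bt, the globins) were at 0 in all specimens, and Epor and Gata1 were among those that rose with the PI3K inhibitor. All 3 combination specimens had erythroid sums above all vehicle specimens. Neutrophil genes summed to 84173 to 109001 CPM in vehicle, 80045 to 206737 with the BTK inhibitor, 98108 to 191863 with the PI3K inhibitor and 57170 to 74105 with the combination. Gene by gene the direction was another: 3 of the 9 neutrophil genes were higher with the PI3K inhibitor than in vehicle (median −0.31, Cxcr2 called lower), and 4 of 9 with the BTK inhibitor (median −0.24). B cell genes (8) summed to 103 to 210.1 CPM in vehicle, 162 to 482 with the BTK inhibitor, 166 to 217 with the PI3K inhibitor and 177 to 223 with the combination, with a median of −1.02 for the combination minus the BTK inhibitor. Monocyte genes summed to 2451 to 2921 CPM in vehicle and 1537 to 2097 with the PI3K inhibitor, with 3 of 7 called lower against 5.82% of all tested genes. In bulk specimens, a change in the number of cells of a type and in the RNA of each cell cannot be told apart, and the part of cell composition in these results was not tested.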

How the data were processed

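The authors' deposited table gives whole-number counts for each gene and the gene's length. Reads were aligned with STAR to mm10 and counted with featureCounts, per the submitters' processing notes; their versions, settings and use of reads with several matches are not stated there. Libraries were made with a SMART-Seq kit and Nextera XT, per the labels' protocols. The table has 12 count columns, 1 for each specimen number, while 24 samples are listed; 0 columns were left unused. Any pair of specimens in a group differed beyond sampling noise (a chi-square of 20.5 to 633 for each degree of freedom). The largest values, 489 and 633, were pairs with BTK inhibitor specimen 5. Such differences do not show that each specimen is its own mouse. All specimens were kept in the main fit.

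In R 4.3.3, edgeR 4.0.16 kept 12742 genes (filterByExpr, smallest count 10, total 15), scaled by TMM and fitted a quasi-likelihood model of 4 group means over 12 specimens. P-values were adjusted by Benjamini-Hochberg over all tested genes, with a threshold of 0.05. There were 8 comparisons. The log2 CPM used a prior count of 2. Like-length genes are the 200 tested non-members nearest in length; this is a description without a test. DESeq2 1.42.0, limma 3.58.1, other scalings and filters, a spline on length (5 degrees of freedom), and each specimen left out were alternatives. The limma fit was voom with a quality weight for each specimen, called voom throughout. Scripts were tested on simulated data.

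The members and gene lists were chosen with earlier results of these data known. Values are given in every specimen for complex II, for the 4 members of each other complex with the smallest p for any difference, and for 6 core members; other lists name up to 4 called genes, or the 2 with the smallest p. Members further above or below like-length genes, and those called in a fit, were named after their values were seen.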

Additional observations from a re-analysis of the deposited data

Results flagged for a closer look

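The response to the 2 inhibitors together differed from the sum of the single responses (interaction, edgeR quasi-likelihood, adjusted p under 0.05) in 35 of 43 members, against 15.6% of all tested genes and 53.6% of like-length genes. The count was 0 without vehicle specimen 2, PI3K inhibitor specimen 8 or 9, or combination specimen 11 or 12. In each of those fits, at most 1 of all tested genes was called. Among the members described specimen by specimen, the interaction was −1.25 in Sdhb, −1.52 in Sdhc and −2.09 in Sdhd (log2). In complex III it was −1.45 in Uqcrfs1, −2.46 in Uqcrb, −3.58 in Uqcr11 and −4.01 in Uqcrh. In complex IV it was −2.15 in both Cox5b and Cox7b, −2.45 in Cox7a2l, −3.28 in Cox6c, −3.29 in Cox4i1 and −3.87 in Cox7c. In complex V it was −1.75 in Atp5o, −3.33 in Atp5h, −3.78 in Atp5k and −4.63 in Atp5e. Genes of like length had a median interaction of −2.00, and none of these members passed once a trend on length was removed. Groups of 3 specimens are too small for the search for outlying specimens.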

How the results depend on the processing

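The median distance of the members from like-length genes kept its direction over all 43 in every setting that gave a value, for the PI3K inhibitor minus vehicle (0.20 to 0.35), the BTK inhibitor minus vehicle (0.10 to 0.34) and the interaction (−0.65 to −0.28), and with each specimen left out (0.14 to 0.26, 0.12 to 0.31 and −0.54 to −0.29). It could not be given for 3 pairwise comparisons with only the groups compared, where the filter dropped a member. For complexes taken singly, the sign turned in complex II (interaction 0.18, BTK inhibitor minus vehicle −0.07, with neighbours matched on level) and complex III (BTK inhibitor minus vehicle −0.04 with 100 neighbours). Counts of members called moved most, with shares of all genes in brackets. With DESeq2 they were 22 (7.17%) for the BTK inhibitor minus vehicle, 32 (12.5%) for the PI3K inhibitor minus vehicle, 14 (4.04%) for the combination minus the BTK inhibitor and 16 (3.8%) for the combination minus the PI3K inhibitor; with limma voom 32 (11%), 37 (19%), 33 (18.7%) and 37 (21%). With only the groups compared, they were 35 (16.2%) for the PI3K inhibitor minus vehicle and 33 (16.1%) for the combination minus the PI3K inhibitor. With Y-linked presence as a covariate, 0 members (and 0 of all tested genes) were called for the PI3K inhibitor minus vehicle.

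With the length trend removed, that count and that of the interaction were 0. The medians were then 0.32 for the BTK inhibitor and 0.38 for the PI3K inhibitor minus vehicle, −0.21 and −0.31 for the combination minus each, and −0.64 for the interaction. With BTK inhibitor specimen 5 also left out, they were 0.22, 0.39, −0.12, −0.31 and −0.53, with 0 members in the interaction. Atp5d reversed to −0.016 and −0.010, and Cox8a to −0.16 and −0.16, in these 2 fits, which take out the trend on length by construction.

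Each specimen was left out in turn, and brackets give the share of all genes called in the same direction at the highest count. The members called ran from 0 to 31 (16.1%) for the BTK inhibitor minus vehicle and 0 to 37 (17.1%) for the PI3K inhibitor minus vehicle. They ran from 0 to 25 (14.7%) for the combination minus the BTK inhibitor and 0 to 33 (9.38%) for the combination minus the PI3K inhibitor. For the interaction they ran from 0 to 36 (14.3%). The highest counts came without BTK inhibitor specimen 6 in both comparisons with the BTK inhibitor alone, and without specimen 5 in the others. No paired analysis was possible because the groups share no specimen numbers. At 8993950 counts, BTK inhibitor specimen 5 had the least depth, and Cox7a1 had 3 to 14 counts in a specimen.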
